A study of Mus musculus with 5 samples.

Results

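The genes described here are 9 that mark myelin and the oligodendrocytes that make it: *Mbp*, *Mobp*, *Mog*, *Mag*, *Mal*, *Cnp*, *Cldn11*, *Ermn* and *Ugt8a*. They were chosen by name, and all 9 were found among the 15093 genes measured. RNA bound to tagged ribosomes was purified from central amygdala (CeA) of *Drd2*-TRAP mice and sequenced in 5 libraries, 3 from fear conditioned animals (replicates 2, 3 and 4) and 2 from controls (replicates 6 and 7). Both groups were adult mice of the same double transgenic line, in which Cre expressed from *Drd2* releases a floxed stop and turns on the ribosomal protein L10a fused to GFP, so that translating ribosome affinity purification (TRAP) with an antibody to GFP should retain RNA of cells with a history of *Drd2* expression. Each library was a separate pool of bilateral CeA punches from 3 animals, and brains were taken 2 h after the session. The labels and the study's methods name the controls home cage animals, and its results describe tone exposed controls. The labels place collection after extinction, and the study's text after conditioning. No unbound or input fraction was analysed here, so enrichment by the pull-down was not measured.

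Myelin is the spiral of compacted membrane that oligodendrocytes wrap around axons, and it speeds conduction along them. Its RNAs are among the most abundant of the mature oligodendrocyte, and the RNA of *Mbp* is transported into the processes and translated there. Oligodendrocytes are not the cells that the *Drd2* label is meant to tag, so the 9 genes read a cell type other than the intended one. Among them are proteins that compact the membrane (*Mbp*, *Mobp*), surface proteins of the immunoglobulin family (*Mog*, *Mag*), membrane proteins of rafts and tight junctions (*Mal*, *Cldn11*), proteins of the cytoplasmic channels and the cytoskeleton (*Cnp*, *Ermn*) and a lipid enzyme (*Ugt8a*).

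Depth, as recovered reads on genes, was 21070588 in fear conditioned replicate 2, 25022225 in replicate 3 and 19988438 in replicate 4. It was 27937520 in control 6 and 19605318 in control 7. The controls stood apart from the other libraries and from each other. Control 7 had 2681 genes at 0 and control 6 had 976, whereas the fear conditioned libraries had 349, 263 and 159. Over the 13560 genes with a mean of at least 1 CPM (normalized counts per 1000000, as deposited), the median difference between the 2 controls was 1.08 on the log2(CPM + 1) scale, the largest of any pair of the 5 libraries. The pair of fear conditioned replicates 3 and 4 had the smallest, 0.23. *Drd2* itself was read at 326, 375 and 555 CPM after fear conditioning and at 128 and 262 CPM in the controls. The intended cells were thus represented in every library, and the myelin genes were detected in every library as well, with none of the 9 at 0.

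Promoter sequences (250 bases before the annotated start, gene orientation) were found in RefSeq on build GRCm38.p6 for 8 of the 9 genes. Those of 4 genes are shown, picked by their values or their motifs. The estimate of *Cnp* moved least when a control was left out, and *Mobp* held the most matches to one motif. *Cldn11* and *Ermn* differed most between the controls. No link between sequence and values was tested. Capitals mark the SOX core ACAAAG (or CTTTGT, its reverse complement) and the MYRF core CTGGCAC, after a pair of transcription factor families known to drive myelin genes. *Cnp* lies at chr11:100574689-100574938 (plus strand), *Mobp* at chr9:120149492-120149741 (plus strand), *Cldn11* at chr3:31149670-31149919 (plus strand) and *Ermn* at chr2:58052865-58053114 (minus strand).
Cnp: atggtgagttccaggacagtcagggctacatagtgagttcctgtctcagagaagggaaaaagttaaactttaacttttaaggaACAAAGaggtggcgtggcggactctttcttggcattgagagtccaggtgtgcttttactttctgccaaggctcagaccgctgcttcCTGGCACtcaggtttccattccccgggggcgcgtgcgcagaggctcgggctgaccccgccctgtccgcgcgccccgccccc
Mobp: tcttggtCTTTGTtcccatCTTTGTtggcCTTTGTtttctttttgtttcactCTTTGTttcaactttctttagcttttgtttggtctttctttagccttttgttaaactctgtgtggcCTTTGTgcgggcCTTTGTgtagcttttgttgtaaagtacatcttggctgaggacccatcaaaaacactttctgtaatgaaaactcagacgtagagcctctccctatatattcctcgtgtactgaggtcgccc
Cldn11: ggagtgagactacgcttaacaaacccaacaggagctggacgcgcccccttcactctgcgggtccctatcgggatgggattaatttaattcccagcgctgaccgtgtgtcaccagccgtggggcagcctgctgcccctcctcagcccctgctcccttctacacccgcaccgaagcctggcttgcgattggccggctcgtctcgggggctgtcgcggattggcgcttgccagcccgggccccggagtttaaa
Ermn: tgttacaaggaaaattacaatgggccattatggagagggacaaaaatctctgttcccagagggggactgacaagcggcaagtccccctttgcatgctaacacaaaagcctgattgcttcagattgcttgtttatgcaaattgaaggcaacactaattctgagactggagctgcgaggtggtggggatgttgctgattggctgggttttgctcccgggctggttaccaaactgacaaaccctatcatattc

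Searched on both strands, the SOX core was found before *Cnp*, *Mag* and *Mobp*, against 16.5% of all 32851 promoters in the table. *Mobp* held 6 matches, all on the minus strand, between 243 and 115 bases before the start. The MYRF core was found before *Cnp* and *Mag* (3 of the 10 promoters), against 4.19% of all promoters. Overlapping promoters of *Mag* held the same SOX and MYRF sites. In *Cnp*, the SOX core lay 167 to 162 and the MYRF core 81 to 75 bases before the start. The E-box CANNTG was found before *Cnp*, *Mag* and *Ugt8a* (4 of the 10 promoters, against 66.2% of all promoters). The TATA box TATAAA was found before none of the 8 genes (12.4% of all promoters). *Cldn11* and *Ermn* held none of the 4 motifs in this window, and their bases were 63.6% and 47.2% G or C, on either side of the median of 52.4% over all promoters. A match is a description of the letters, not of a bound site.

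The 9 genes were lower on average after fear conditioning, but limma called none of them, while DESeq2 called 2 (*Cnp* and *Cldn11*). All 9 had a negative log2 fold change (fear conditioned against control), with a median of -0.96, whereas 46.0% of all genes tested had one and their median was 0.08. The estimates ran from -0.14 for *Ermn* to -2.72 for *Cldn11*. The values of the groups did not overlap in 4 of the 9 genes (*Mog*, *Cnp*, *Cldn11* and *Ugt8a*), in each of which every fear conditioned library lay below both controls. Over all genes tested, 16.1% had all fear conditioned libraries below both controls and 20.2% had all above, and none of the 9 did the latter. These are pull-down RNAs whose enrichment was not measured. The number of oligodendrocytes, the RNA per oligodendrocyte and the purity of the pull-down cannot be told apart in them.

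**Figure D1:**
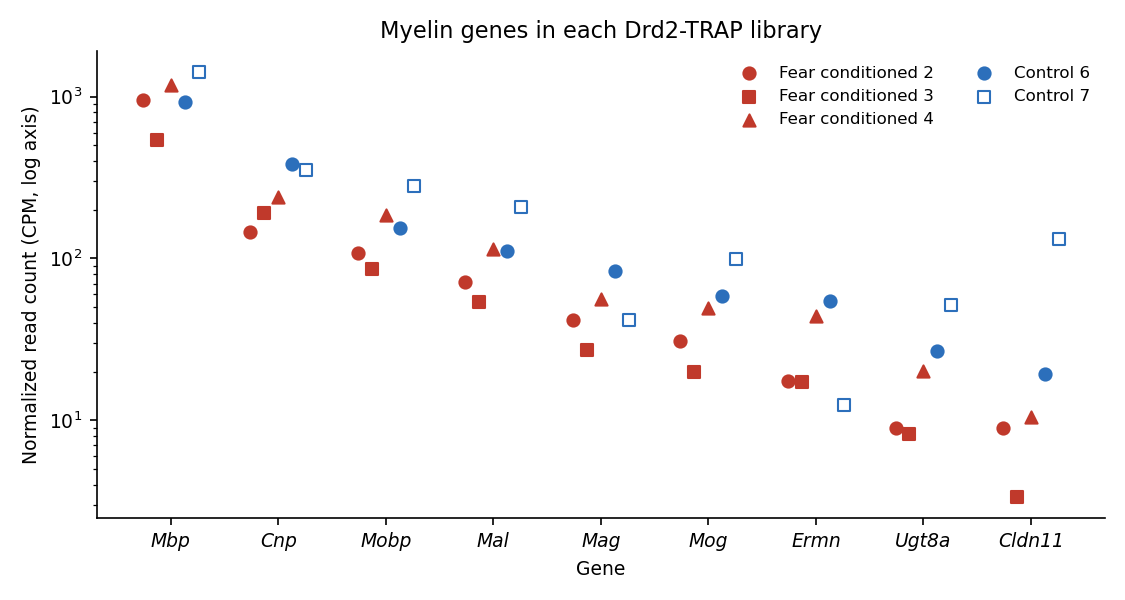
Normalized read count of the 9 myelin genes (CPM, log axis) in each of the 5 *Drd2*-TRAP libraries, one marker per library, red for fear conditioned and blue for control. Fear conditioned replicate 4 (triangles) is the highest red marker for all 9 genes, and the controls lie far apart for *Ermn* (54.2 and 12.4 CPM) and *Cldn11* (19.3 and 132 CPM).

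With limma and Benjamini-Hochberg adjustment over all 13560 genes, none of the 9 met both cutoffs (adjusted p under 0.05, log2 fold change beyond 0.5 in either direction), and neither did any other gene (0% called). At an unadjusted p under 0.05, limma gave 4 of the 9, the same 4 genes, all lower, against 7.32% of all genes lower and 9.49% higher. Over all genes there were 2280 at that level by limma. The edgeR quasi-likelihood test on recovered reads likewise called 0 genes, and 2039 had an unadjusted p below 0.05 in it. With DESeq2, 2626 genes did. DESeq2 on the same reads called 1017 genes, among them *Cnp* and *Cldn11*, both lower, against 3.81% of all genes called lower. With libraries as units, exact permutation tests of the 9 genes gave two-sided p-values from 0.1 to 0.9, where 0.1 is the smallest that the 10 arrangements of 3 against 2 libraries allow and was reached by *Cnp* and *Cldn11*.

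How many of the 9 were called depended on which control library was used. Without control 6, limma called 6 of the 9 (*Mobp*, *Mog*, *Mal*, *Cnp*, *Cldn11* and *Ugt8a*), all lower, against 24.2% of all genes called lower. Without control 7 it called *Cnp* alone, against 15.7% of all genes called lower. In both fits the lone control was assumed to vary like the fear conditioned libraries.

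**Figure D2:**
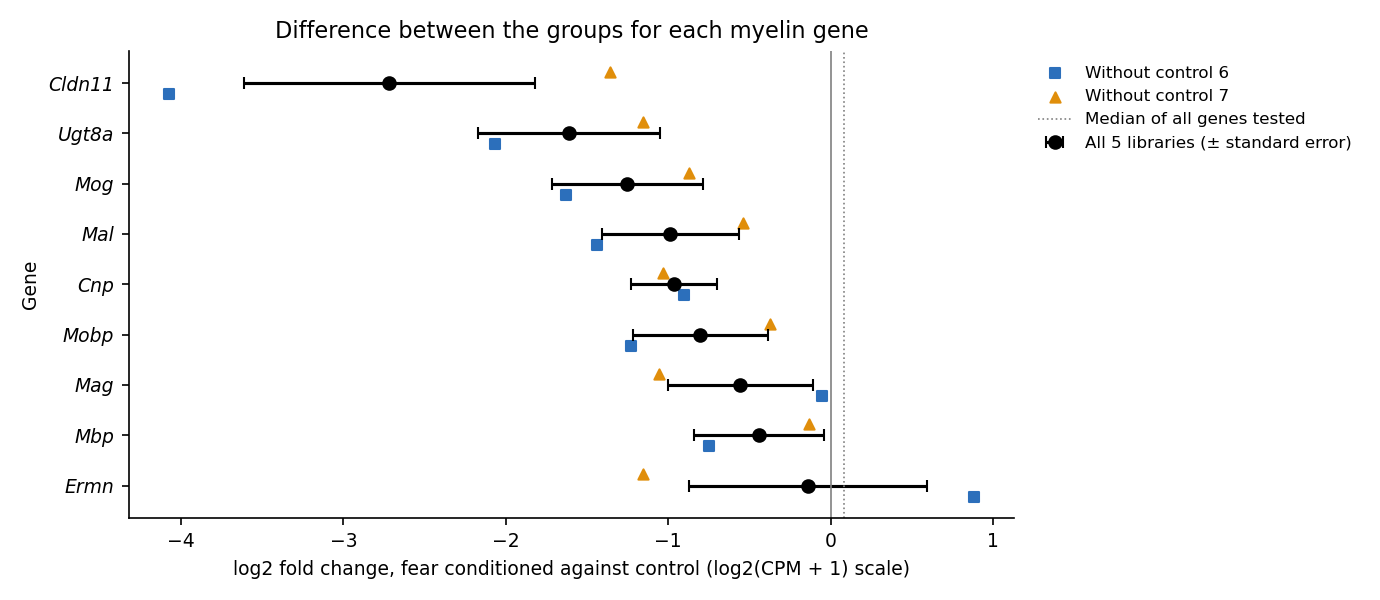
log2 fold change of each gene (fear conditioned against control, log2(CPM + 1) scale), black circles for all 5 libraries with bars of 1 standard error, blue squares without control 6 and orange triangles without control 7; the dotted line is the median of all genes tested (0.08). All black circles lie below 0, and *Cnp* moves least when a control is left out while *Cldn11* (-4.07 and -1.36) and *Ermn* (0.88 and -1.16) move most.

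Of the genes that compact the membrane, *Mbp* had the higher level per length in every library. Myelin basic protein holds the cytoplasmic faces of the sheath together. *Mbp* (ENSMUSG00000041607) was read at 956, 536 and 1179 CPM in fear conditioned replicates 2, 3 and 4 and at 927 and 1420 CPM in controls 6 and 7. The groups overlapped, since control 6 lay below fear conditioned replicates 2 and 4. The means were 890 ± 326 (SD, n = 3) and 1173 ± 349 (SD, n = 2) CPM, and the log2 fold change was -0.44 ± 0.40 (standard error, limma adjusted p = 0.598). The estimate for *Mbp* was -0.75 without control 6, -0.13 without control 7 and -0.11 without fear conditioned replicate 3. *Mobp* (ENSMUSG00000032517), a small basic protein also found in compact myelin, was read at 108, 85.5 and 185 CPM after fear conditioning and at 155 and 282 CPM in controls. Only fear conditioned replicate 4 reached into the range of the controls. Its log2 fold change was -0.80 ± 0.42 (limma adjusted p = 0.381), and it was -1.23 without control 6 (adjusted p = 0.0297 by limma) and -0.37 without control 7.

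*Mog*, a surface glycoprotein on the outermost layer of the sheath, separated the groups, and *Mag*, the adhesion protein of the innermost layer facing the axon, did not. *Mog* (ENSMUSG00000076439) was read at 30.7, 20.0 and 49.7 CPM after fear conditioning and at 58.2 and 98.9 CPM in controls. The gap between fear conditioned replicate 4 and control 6 was small beside the spread within either group. The log2 fold change of *Mog* was -1.25 ± 0.46 (limma adjusted p = 0.263), and it lay between -0.87 and -1.63 with either control left out. *Mag* (ENSMUSG00000036634) was read at 41.5, 27.3 and 55.9 CPM after fear conditioning and at 84.0 and 41.5 CPM in controls. Here control 6 was the highest library and control 7 lay among the fear conditioned ones, the reverse of the order seen for *Mog*. The log2 fold change of *Mag* was -0.56 ± 0.45 (limma adjusted p = 0.549), -1.06 without control 7, -0.06 without control 6 and -0.29 without fear conditioned replicate 3.

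The membrane proteins *Mal* and *Cldn11* both read highest in control 7, by very different margins. *Mal*, a proteolipid of membrane rafts (ENSMUSG00000027375), was read at 71.4, 53.5 and 115 CPM after fear conditioning and at 111 and 208 CPM in controls. Fear conditioned replicate 4 and control 6 were nearly level, so the groups overlapped. Its log2 fold change was -0.99 ± 0.42 (limma adjusted p = 0.310), and it was -0.54 without control 7 and -1.44 without control 6 (adjusted p = 0.0149 by limma). *Cldn11*, the claudin of the tight junctions between myelin lamellae (ENSMUSG00000037625), was read at 8.96, 3.37 and 10.4 CPM after fear conditioning and at 19.3 and 132 CPM in controls. Both controls lay above every fear conditioned library, but control 7 was 6.85-fold above control 6 and 17.5-fold above the fear conditioned mean. The recovered reads behind these values were 189, 81 and 210 after fear conditioning and 579 and 2512 in controls, so counting error (at most 11.1% of a value) was small beside that gap.

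The estimate for *Cldn11* differed with the control used. The log2 fold change was -2.72 ± 0.90 with all libraries (limma adjusted p = 0.236), -4.07 without control 6 (adjusted p = 0.00062 by limma) and -1.36 without control 7 (adjusted p = 0.0885 by limma). DESeq2 on recovered reads gave -3.39 (adjusted p = 0.00535).

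Of the cytoplasmic pair, *Cnp* was the most even within the groups and *Ermn* the least. *Cnp* (ENSMUSG00000006782), the cyclic nucleotide phosphodiesterase that keeps cytoplasmic channels in myelin open, was read at 146, 190 and 241 CPM after fear conditioning and at 385 and 352 CPM in controls. The controls were close to each other and both well above the highest fear conditioned library. The means were 192 ± 47.3 (SD, n = 3) and 369 ± 23.5 (SD, n = 2) CPM, and the log2 fold change was -0.96 ± 0.27 (limma adjusted p = 0.210). The estimate was -0.90 without control 6 and -1.03 without control 7, fits in which a single control was left. Without fear conditioned replicates 2, 3 and 4 it was -0.78, -0.97 and -1.14 (limma adjusted p = 0.628, 0.698 and 0.729). DESeq2 with all libraries gave an adjusted p of 0.0332. *Ermn* (ENSMUSG00000026830), the actin binding protein ermin of late oligodendrocytes, was read at 17.6, 17.2 and 43.9 CPM after fear conditioning and at 54.2 and 12.4 CPM in controls. Its controls were the highest and the lowest of the 5 libraries. The log2 fold change of *Ermn* was -0.14 ± 0.73 (limma adjusted p = 0.936), with opposite signs when control 6 (0.88) or control 7 (-1.16) was left out, and it was 0.07, 0.09 and -0.57 without fear conditioned replicates 2, 3 and 4.

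*Ugt8a*, the galactosyltransferase that makes the cerebrosides of myelin, had the lowest mean level per length over the 5 libraries, although *Cldn11* was lower in fear conditioned replicate 3 and *Ermn* in control 7. *Ugt8a* (ENSMUSG00000032854) was read at 8.96, 8.25 and 20.0 CPM after fear conditioning and at 26.7 and 51.3 CPM in controls. The groups did not overlap, although fear conditioned replicate 4 came near control 6. The log2 fold change was -1.61 ± 0.56 (limma adjusted p = 0.249), -2.07 without control 6 (adjusted p = 0.00751 by limma) and -1.16 without control 7.

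The spread between the 2 control libraries was widest for *Cldn11* and *Ermn*. On the log2(CPM + 1) scale the controls differed by 0.13 for *Cnp*, by 0.62 to 1.00 for *Mbp*, *Mog*, *Mobp*, *Mal*, *Ugt8a* and *Mag*, by 2.04 for *Ermn* and by 2.71 for *Cldn11*. The median over the 9 was 0.90, against 1.08 over all genes tested. Over the 10016 genes with at least 1 CPM in every library, which include all 9, the median was 0.83, so whether the 9 lay below or above other genes depended on the filter on low values. The controls did not shift together: control 7 was the higher for *Mbp*, *Mobp*, *Mog*, *Mal*, *Cldn11* and *Ugt8a* (6 of 9, against 43.3% of all genes), and control 6 for *Mag*, *Cnp* and *Ermn*. Relative to the fear conditioned mean, the 9 genes had a median of 1.03 and an SD of 0.41 in control 6, but a median of 1.23 and an SD of 1.38 in control 7. In control 7 they ran from -0.88 for *Ermn* to 4.07 for *Cldn11*. Over all genes tested, the SD was 1.60 in control 7 and 0.99 in control 6.

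**Figure D3:**
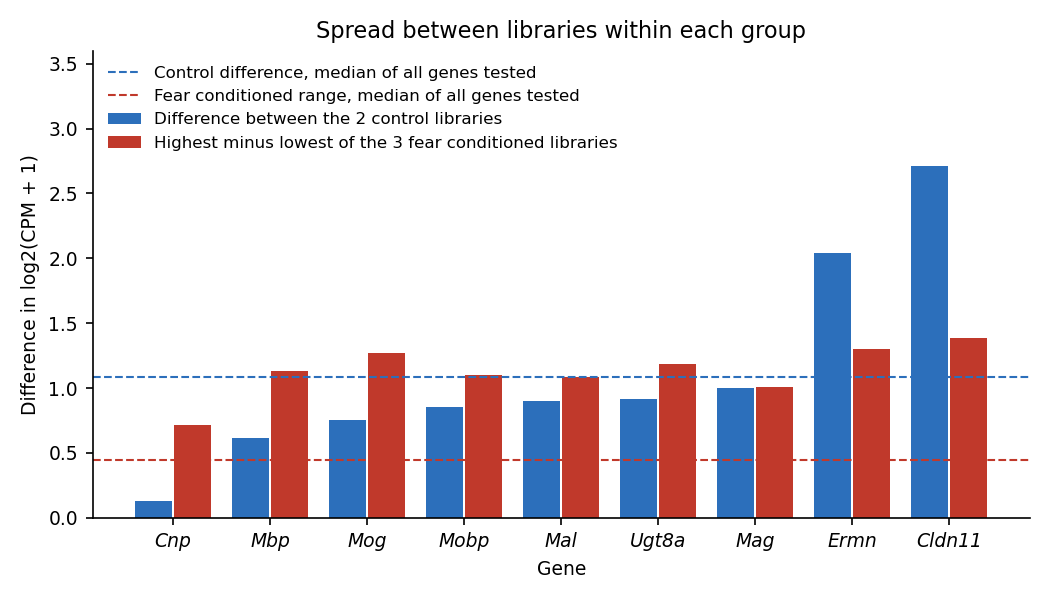
Difference in log2(CPM + 1) between the 2 controls (blue bars) and between the highest and the lowest of the 3 fear conditioned libraries (red bars) for each gene, with dashed lines at the medians over all genes tested (1.08 and 0.44). The blue bar is the taller for *Ermn* and *Cldn11* only, and every red bar lies above the red line.

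The fear conditioned libraries also differed among themselves, and in the same order for nearly all of the 9 genes. The highest and the lowest fear conditioned library differed by 0.72 for *Cnp* to 1.39 for *Cldn11*, with a median of 1.14 over the 9 and of 0.44 over all genes tested. The controls differed by more than the fear conditioned range in 2 of the 9 (*Cldn11* and *Ermn*), against 75.7% of all genes. Fear conditioned replicate 4 was the highest of its group for all 9 genes, and replicate 3 was the lowest for 8, the exception being *Cnp* with replicate 2 lowest. Over all genes tested, replicate 4 was highest in 27.5% and replicate 3 lowest in 33.0%. Replicates 3 and 4 were the most alike of all pairs over the whole table, but the 9 genes differed between them by a median of 1.14. Fear conditioned replicate 4 differed from control 6 by a median of 0.35 for the 9 genes and of 0.55 for all genes tested. These are descriptions of single libraries, and no test was made of them.

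Summed, the 9 genes came to 1389, 941 and 1899 CPM in fear conditioned replicates 2, 3 and 4 and to 1820 and 2599 CPM in controls 6 and 7. The sums overlapped, because fear conditioned replicate 4 exceeded control 6. *Mbp* made up 68.8%, 57.0% and 62.1% of the summed CPM (not scaled for gene length) after fear conditioning and 50.9% and 54.7% in controls. Without *Mbp* the sums were 433, 405 and 720 CPM against 894 and 1178 CPM, and the groups no longer overlapped. The share of *Cldn11* was 5.10% in control 7 and at most 1.06% in the other libraries, and that of *Ermn* was 0.479% in control 7 and at least 1.27% elsewhere.

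The levels of the 9 genes were put in order per kilobase of the deposited gene length. *Mbp* was first and *Cnp* second in all 5 libraries, with means of 214 and 72.3 CPM per kb. *Mal* (37.8 CPM per kb on average) came next in 4 libraries. In control 7 that place went to *Cldn11* at 72.0 CPM per kb, next to *Mal* at 70.3, and *Ermn* was last at 3.43. *Mog*, *Mobp* and *Mag* traded the places behind *Mal* from library to library, with means of 30.2, 25.1 and 20.7 CPM per kb. *Cldn11*, *Ermn* and *Ugt8a* had means of 19.0, 8.01 and 6.44 CPM per kb, and that of *Cldn11* rested on control 7, since its other libraries lay between 1.83 and 10.5.

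Other genes of the oligodendrocyte lineage had estimates in both directions. Of 62 such genes in 4 lists, 61 were measured, and 38 had a negative and 23 a positive log2 fold change, with a median of -0.44. In 21 of the 61 (34.4%) every fear conditioned library lay below both controls, and in 5 every one lay above, against 16.1% and 20.2% of all genes tested. None met both cutoffs with limma. At an unadjusted p under 0.05, 14 were lower and 1 was higher by limma, against 7.32% and 9.49% of all genes. DESeq2 called 8, all lower, against 3.81% of all genes called lower. Fear conditioned replicate 4 was the highest of its group in 41 of these 61 genes (67.2%) and replicate 3 the lowest in 46 (75.4%).

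Among 18 other genes of the myelin membrane, 6 had all fear conditioned libraries below both controls and none had all above (16.1% and 20.2% of all genes tested). The median log2 fold change of these 18 genes was -0.51. Their sums were 779, 565 and 1277 CPM against 1606 and 3625 CPM, with *Nipal4* at 0 in control 6 and *Tmem125* at 0 in control 7. The lowest estimate of the list was that of the tetraspanin *Tspan2*, at 38.0, 42.4 and 60.6 against 189 and 212 CPM, with a log2 fold change of -2.10 ± 0.28 (limma adjusted p = 0.197). Both controls of *Tspan2* lay far above the fear conditioned libraries and close to each other, as for *Cnp*. The highest estimate was that of the lysophosphatidic acid receptor *Lpar1*, at 12.2, 6.08 and 19.1 against 1.14 and 7.59 CPM, where the groups overlapped.

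Of 23 enzymes and cytoplasmic proteins of oligodendrocytes, 10 had all fear conditioned libraries below both controls and 2 had all above (16.1% and 20.2% of all genes tested). The median log2 fold change of these 23 genes was -0.59. Their sums were 1602, 1505 and 1748 against 3548 and 2263 CPM. The highest mean CPM over the 5 libraries (not scaled for length) was that of the tubulin *Tubb4a*, which neurons also express, at 328, 307 and 308 against 574 and 536 CPM. The lowest estimate was that of *Enpp2* (autotaxin, a phospholipase that the choroid plexus also makes in quantity), at 49.9, 72.4 and 53.7 against 1201 and 482 CPM. The highest was that of the fatty acid elongase *Elovl1*, at 9.62, 4.87 and 6.90 against 4.44 and 0 CPM. The 2 genes at the ends of this list thus differed between the controls as well, *Elovl1* being at 0 in control 7, as was *Gal3st1*.

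The medians of the regulators and the precursor genes lay nearer to 0. Of 10 transcription factors of the lineage, 9 were measured, and their median log2 fold change was 0.03. Of these 9, 2 lay wholly below and 2 wholly above the controls, against 16.1% and 20.2% of all genes tested. *Olig1*, with the highest mean CPM of the list over the 5 libraries, was read at 41.8, 22.8 and 53.6 against 65.8 and 34.5 CPM, with overlapping groups. The lowest estimate was -1.63 for *Nkx2-2* (0.379, 0.375 and 1.39 against 2.44 and 6.59 CPM), and the highest was that of *St18* (2.84, 1.25 and 4.17 against 0 and 0.158 CPM), whose controls held 0 and 3 reads. Of 11 genes of oligodendrocyte precursors, 3 lay wholly below and 1 wholly above the controls (16.1% and 20.2% of all genes tested), with a median of -0.18. *Fyn*, a kinase that neurons also express, had the highest CPM of the list in every library. The lowest estimate was that of *Gpr17*, a receptor of cells about to differentiate, at 6.02, 6.95 and 7.30 against 25.9 and 57.0 CPM. The highest was that of *Lhfpl3*, at 10.3, 13.0 and 11.1 against 12.3 and 0.158 CPM, where control 7 alone was low, and *Tnr* was at 0 in control 7. Of 5 genes of peripheral myelin, which Schwann cells make, only *Pmp22* and *Egr2* were measured, with log2 fold changes of -0.10 and 2.19 (*Egr2* was at 0 in control 6). *Egr2* is also an activity regulated gene of neurons.

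Summed markers of other cell types also read lower in every fear conditioned library than in both controls, but limma called none of these genes. DESeq2 called 4 astrocyte, 2 endothelial or mural, 2 choroid plexus and 0 microglial genes, all lower, against 3.81% of all genes called lower. The part of these cell types in the values of the myelin genes was not tested. Of 12 astrocyte genes, 7 lay wholly below the controls, with a median log2 fold change of -0.80 and sums of 1230, 1049 and 1335 against 2588 and 3217 CPM, with *Slc1a2* at 377, 274 and 381 against 843 and 1905 CPM. Over all genes tested, 16.1% lay wholly below the controls and 20.2% wholly above. Of 12 microglial genes, 4 lay wholly below and 2 wholly above. Of 9 endothelial and mural genes tested, 4 lay wholly below and 1 wholly above. Of 6 choroid plexus genes tested, 3 lay wholly below and none wholly above. Choroid plexus genes (7 measured) had sums of 58.1, 110 and 62.8 against 1011 and 1415 CPM, nearly all of it *Ttr* in the controls (913 and 1320 CPM). After fear conditioning most of the sum was *Clic6* (50.9, 77.25 and 56.2 CPM), which was read at 51.1 and 64.2 CPM in controls. Of the 7 measured, *Folr1* and *Kcnj13* were at 0 in fear conditioned replicate 2, *Aqp1* in replicates 3 and 4 and in control 7, and *Otx2* in control 7. Microglial genes (12) had a median of -0.35 and sums of 164, 88.0 and 167 against 213 and 200 CPM, with *Ctss* at 20.5, 9.12 and 25.1 against 42.8 and 53.6 CPM. Endothelial and mural genes had a median of -1.32 (9 tested). Their sums (10 measured) were 57.1, 19.8 and 52.8 against 119 and 248 CPM, and *Tek* was at 0 in both controls. *Ly6c1* held 150.5 CPM of the sum in control 7 and between 3.04 and 8.98 CPM in the other libraries. No astrocyte or microglial marker was at 0 in any library.

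Neuronal genes were read in the same way. Of 10 pan-neuronal genes, 3 lay wholly below and 2 wholly above the controls, against 16.1% and 20.2% of all genes tested. Their median log2 fold change was -0.36 and their sums lay between 9127 and 11939 CPM, in which *Snap25* had the highest CPM in every library. Of 8 genes of *Drd2* neurons, 7 lay wholly above the controls (20.2% of all genes tested did), with a median of 1.30 and sums of 22322, 22927 and 24178 against 8217 and 13949 CPM, in which *Penk* had the highest CPM in every library. None of the genes in either list was at 0 in any library. The myelin sum differed from that of the *Drd2* neuron list within the fear conditioned group, in which the latter was nearly level while the former varied from 941 to 1899 CPM.

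**Figure D4:**
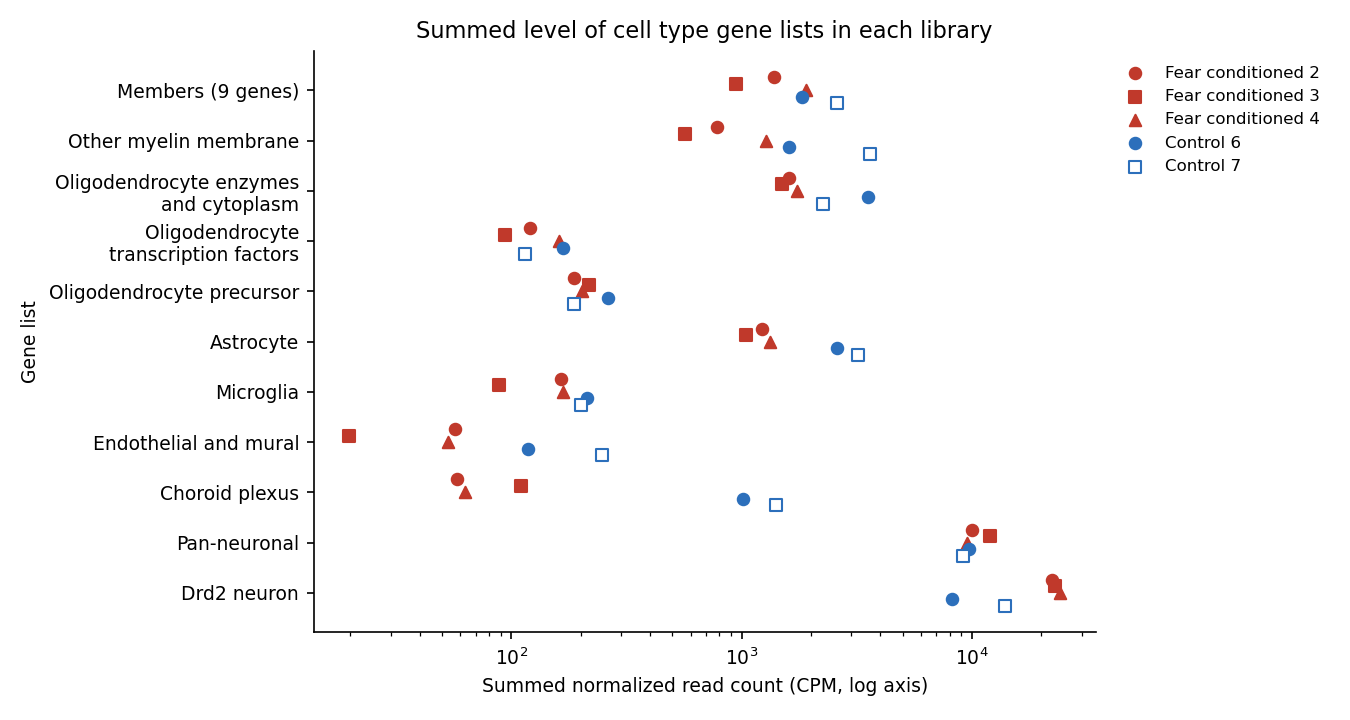
Summed normalized read count (CPM, log axis) of each gene list in the 5 libraries, red for fear conditioned and blue for control. The 9 myelin genes (top row, 941 to 1899 CPM after fear conditioning, 1820 and 2599 CPM in controls) overlap between the groups. The sums of the other myelin membrane genes, the oligodendrocyte enzymes and the astrocyte, microglial, endothelial and choroid plexus genes lie higher in both controls, and the *Drd2* neuron sums lower.

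The genes whose pattern over the 5 libraries was most like the mean of the 9 were *Dusp11*, *Agtrap*, *Hipk2*, *Mlc1* and *Sept4* (named 4-Sep in the deposited table). Likeness was the root mean square difference from that mean on the log2(CPM + 1) scale, each gene centred on its own average, and it lay between 0.141 for *Dusp11* and 0.151 for *Sept4*. *Sept4*, for example, was read at 81.8, 47.7 and 101 CPM after fear conditioning and at 149 and 169 CPM in controls. *Mlc1*, known from astrocytes, was read at 42.4, 27.8 and 51.2 against 79.6 and 89.5 CPM. Of the 9 themselves, *Mal* and *Mog* were the nearest to their mean (0.163 each) and *Ermn* (0.912) and *Cldn11* (1.12) the farthest, with 70.1% of all genes tested closer to it than *Cldn11*. With 5 libraries, such likeness is a description only.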

How the data were processed

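RNA was purified by TRAP and sequenced in 5 *Drd2*-TRAP libraries (3 fear conditioned, 2 control), grouped by the labels. The authors deposited a normalized signal per gene and library, as CPM (counts scaled to 1000000 per effective library), and a gene length. The processing notes name DESeq and build mm8, and the aligner, annotation and strand setting are not given in the sources used here. Whole multiples of the smallest value above 0 made up 100% of values in each library (tolerance 0.01) and were used as recovered reads, 19605318 to 27937520 per library. A floor of 3 reads equals 0.100 to 0.158 CPM, and intervals and floors cover counting error only. Genes with repeated names (43) were joined by identifier.

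Values were tested as log2(CPM + 1) with limma 3.58.1 (trend, two-sided, Benjamini-Hochberg) in R 4.3.3 over the 13560 genes with a mean of at least 1 CPM. Cutoffs were an adjusted p of 0.05 and an absolute log2 fold change of 0.5. A fold change on this scale understates that of low genes. Alternatives were a pseudocount of 0.1, other filters on low values, quantile and TMM normalization, an adjusted p of 0.1, each library left out, and edgeR 4.0.16 (quasi-likelihood) or DESeq2 1.42.0 on recovered reads. The fits were also run on simulated counts with large changes and the same spread in both groups. The controls here differed more, so that run checked the code and not the calls. Because the libraries are pools, p-values measure the spread between pools. Labels of batch are not given in the sources used here.

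The 9 genes and the gene lists were chosen with earlier results of these data known. Of 127 genes in the other 11 lists, 122 were matched. The text names all 9 genes, the gene of each other list with the highest mean CPM, the genes with the largest and smallest log2 fold change of each oligodendrocyte or myelin list, and the 5 genes most like the mean of the 9, except for an item that is not reported here. *Drd2* was added to check the label, and the genes of each list that were at 0 in a library are named. The behavioral, imaging and quantitative PCR experiments of the study were not analysed here.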

Additional observations from a re-analysis of the deposited data

How the results depend on the processing

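With 3 and 2 libraries, a single control could decide a call. With libraries left out one at a time, limma called 0 to 8025 genes: 8025 without control 6, 3722 without control 7, 1 without fear conditioned replicate 3, and 0 without fear conditioned replicate 2 or 4. Of the 9 myelin genes it called 0 to 6 (6 without control 6, 1 without control 7). DESeq2 called 1017 genes, 2 of them myelin genes. The genes with all fear conditioned libraries below the controls numbered 4 to 7, with 7 without fear conditioned replicate 4 (17.9% of all genes; *Mag* by 41.48 against 41.50 CPM), 7 without control 6 (37.3%, and *Ermn* alone lay above) and 6 without control 7 (40.7%). Fewer libraries separate more easily by construction. *Ermn* ran from -1.16 to 0.88 and was positive without fear conditioned replicate 2 (0.07), without replicate 3 (0.09) and without control 6 (0.88). The cause was not tested.

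The median log2 fold change of the 9 genes stayed between -1.23 and -0.74 under all 12 alternatives, and apart from *Ermn* each gene kept its sign in all of them. With all 5 libraries, 4 genes did not overlap under quantile or TMM normalization either. Under these, 17.6% and 15.2% of all genes lay wholly below the controls. At an adjusted p of 0.1, limma with all 5 libraries called no gene. The median difference between the controls was 0.90, and 0.78 to 0.95 under the other pseudocount and normalizations, where that of all genes was 0.97 to 1.20. With at least 1 CPM in every library, that of all genes was 0.83. It has no value when a control is left out. No paired analysis was made, because the sources used here give no pairing of the libraries. The replicate numbers are those at the end of the sample titles.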
